A study of Mus musculus with 6 samples.

Results

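The genes Shh, Foxa2, Nkx2-1 and Nkx2-9 pattern the ventral side of the developing nervous system, and their chromatin was examined here in SVZ NSC monolayer cultures, which are neural stem cells grown from the subventricular zone of C57BL/6 mice and used at passages 5 to 7. All peaks that overlapped by at least 1 bp a window around each gene were taken, which gave 18 of the 43384 peaks of the 3 lists. The windows in mm9 were chr5:28765000-28815000 for Shh, chr2:147855000-147890000 for Foxa2, chr12:57620000-57660000 for Nkx2-1 and chr12:57700000-57725000 for Nkx2-9. Of the 18 peaks, 5 of 9470 were H3K27me3 peaks of proliferating cultures, 4 of 15187 were H3K27me3 peaks of cultures 30 h into differentiation, and 9 of 18727 were H3K4me3 peaks of proliferating cultures. The H3K4me3 culture was labelled ventral, and the H3K27me3 cultures carried no such label. The titles of the H3K4me3 and the proliferating H3K27me3 libraries nevertheless share the code N5, and the labels do not say whether both were made from the same culture. There was 1 library per mark and condition, and the labels name no genotype other than the strain. No difference could therefore be tested against the spread between libraries, and values are set side by side. Depth is unknown, since the lists give no reads, and input DNA was not used here. Peaks are placed by window and not by exon or start site, because gene positions were at hand for GRCm38.p6 and the peaks are in mm9.

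H3K27me3 is placed by Polycomb repressive complex 2, of which EZH2 is the catalytic subunit, and goes with silenced genes. H3K4me3 marks the start sites of active genes, and in stem cells many developmental regulators carry both marks, a state called bivalent. Shh encodes the secreted ligand of the Hedgehog pathway, which sets ventral fates in the neural tube and forebrain. Foxa2 encodes a forkhead transcription factor of the floor plate and of endoderm. Nkx2-1 encodes a homeodomain factor of the ventral forebrain, the thyroid and the lung, and Nkx2-9 encodes a related factor expressed beside the floor plate. The study was about the role of EZH2, and its H3K27me3 profiles were used to look for loci that lacked the mark before differentiation.

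All 4 windows held peaks of all 3 lists, as did 3.90% of the 40 kb tiles that the placed chromosomes were cut into. In proliferating cultures H3K27me3 covered 71.4 kb of the 150 kb in the windows, and at 30 h it covered 101 kb. Each window was covered over a longer stretch at 30 h, by 2.86 kb at Shh, 5.72 kb at Foxa2, 6.42 kb at Nkx2-1 and 14.39 kb at Nkx2-9. So were 93.2% of the 40 kb tiles with H3K27me3 in both lists, and the direction is near that background. The gains are clipped to the windows, and at Nkx2-9 the 30 h peak covered the whole window. H3K4me3 covered 23.1 kb, of which 15.8 kb lay at Nkx2-1. All 9 H3K4me3 peaks lay wholly inside an H3K27me3 peak of the proliferating list and wholly inside an H3K27me3 peak of the 30 h list.

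Promoter sequences of 3 of the 4 genes were found in RefSeq for the build GRCm38.p6, and they are shown because CpG-rich promoters are the usual place where both marks meet. Their positions belong to GRCm38.p6 and cannot be laid on the mm9 peaks. Each line gives the 250 bases before a start site on the minus strand, from 5′ to 3′, with CpG in capitals. The positions are chr12:56536909-56537158 for Nkx2-1, chr12:56613285-56613534 for Nkx2-9 and chr2:148046970-148047219 for the outermost of 3 start sites of Foxa2.
Nkx2-1: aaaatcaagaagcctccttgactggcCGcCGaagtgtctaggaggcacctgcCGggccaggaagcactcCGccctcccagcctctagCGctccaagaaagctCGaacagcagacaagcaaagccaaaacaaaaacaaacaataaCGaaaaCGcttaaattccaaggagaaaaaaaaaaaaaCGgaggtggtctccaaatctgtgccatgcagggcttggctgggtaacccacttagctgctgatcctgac
Nkx2-9: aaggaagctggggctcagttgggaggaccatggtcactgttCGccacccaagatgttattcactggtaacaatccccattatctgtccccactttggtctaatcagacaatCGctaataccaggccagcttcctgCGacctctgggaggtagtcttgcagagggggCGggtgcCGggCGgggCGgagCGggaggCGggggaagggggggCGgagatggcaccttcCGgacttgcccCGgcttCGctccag
Foxa2: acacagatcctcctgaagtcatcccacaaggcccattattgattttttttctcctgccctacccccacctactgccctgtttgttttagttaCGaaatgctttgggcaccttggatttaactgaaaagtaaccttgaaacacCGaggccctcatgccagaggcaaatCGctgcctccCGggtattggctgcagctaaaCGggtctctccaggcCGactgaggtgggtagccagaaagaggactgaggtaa
The motif searched was CG, which reads the same on both strands. Over 300 bases, which add the 50 bases after the start, it occurred 12 times at Nkx2-1, 15 times at Nkx2-9 and 12 times at this start of Foxa2. The other starts of Foxa2 had 23 and 13. The median over all 32851 promoters of the table was 7, and 39.6% of them held at least 12, 34.6% at least 15 and 21.5% at least 23. The count of CpG was therefore above the median at every start listed for these 3 genes, but of a kind shared by many promoters. Most CpG in the Nkx2-9 sequence lie in its second part.

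**Figure D1:**
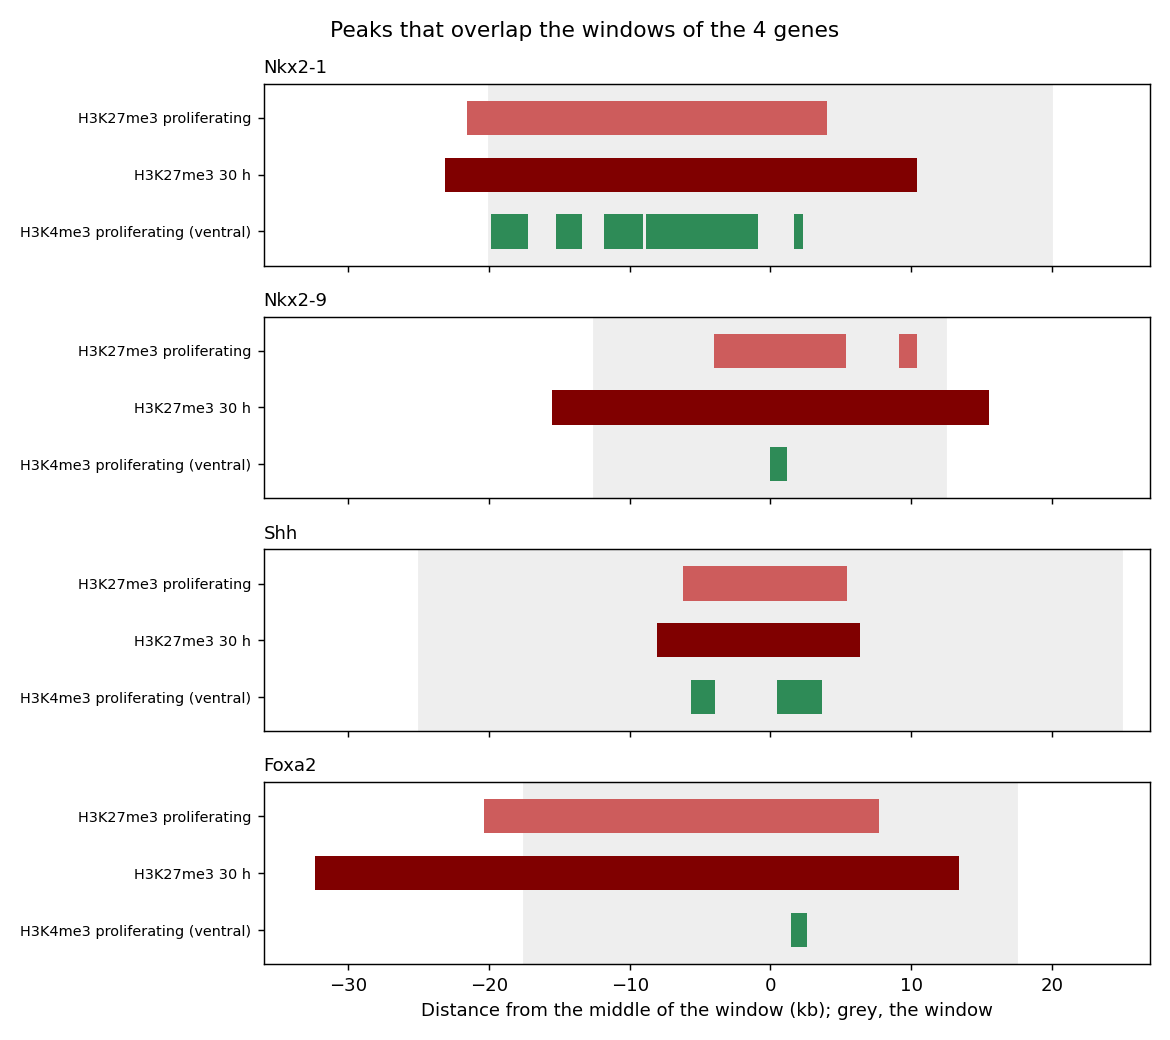
Peaks of the 3 lists (rows) that overlap the windows of the 4 genes, against the distance from the middle of each window (x axis, kb), with the window in grey and peaks drawn to scale, 1 library per row. All 9 H3K4me3 peaks lie under H3K27me3 peaks of both lists, and 5 of them are at Nkx2-1.

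At Shh, the gene of the ligand, proliferating cultures had a single H3K27me3 peak on chromosome 5 from 28783820 to 28795429, 11.6 kb wide, with a score of 2576.09. The score is the peak caller's own value, set by the authors' use of MACS, and is compared only within a list, where 97.2% of the peaks scored lower. At 30 h a single peak ran from 28781915 to 28796386, 14.5 kb wide, with a score of 3100. The mark reached 1.91 kb further on the lower side and 0.957 kb further on the higher side, so that 80.2% of the 30 h peak was already in the proliferating list. H3K4me3 formed a peak of 1.69 kb from 28784357 to 28786048, with a score of 378.13, and a peak of 3.24 kb from 28790436 to 28793675, with a score of 3100. They stood 4.39 kb apart, and together they took 42.5% of the proliferating H3K27me3 peak. The weaker began 0.537 kb inside the lower edge of that peak and the stronger ended 1.75 kb inside its higher edge.

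The marked stretch at Shh had no near neighbour on its higher side. Above it, the next H3K27me3 peak was 936 kb away in proliferating cultures and 923 kb away at 30 h, and the next H3K4me3 peak began 707 kb above the window. Below it, a proliferating H3K27me3 peak of 1.47 kb with a score of 53.93 lay 4.96 kb below the window and overlapped no 30 h peak. Its score was close to the lowest of the list, 50.01, and 61.3% of the list overlapped a 30 h peak. The next 30 h peak on that side was 145 kb from the Shh peak, and the next H3K4me3 peak lay 119 kb below the window. Distant neighbours were not particular to Shh. At Foxa2 the next H3K4me3 peaks lay 331 kb above and 151 kb below the window. The next H3K27me3 peak above the Foxa2 peak was 340 kb away in proliferating cultures, but 37.3 kb away at 30 h. Shh was the window with the lowest share under H3K27me3, 23.2% before differentiation and 28.9% at 30 h.

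At Foxa2, the forkhead gene, the proliferating H3K27me3 peak ran on chromosome 2 from 147852171 to 147880190. It was 28.0 kb wide, had a score of 3100 and ranked 42 by width among 9470 peaks. A second peak of 5.90 kb with a score of 472.33 lay 112 bp below it, outside the window. At 30 h a single peak from 147840151 to 147885910, 45.8 kb wide, held both of them and ranked 42 by width among 15187 peaks. It reached 12.0 kb below and 5.72 kb above the proliferating peak of the window, and 74.1% of it was in the proliferating list. The window held a single H3K4me3 peak of 1.11 kb from 147873995 to 147875103 with a score of 221.88, which was 3.96% of the proliferating H3K27me3 peak. With peaks as called, Foxa2 was thus under the widest H3K27me3 peak among the 4 genes in both lists. At 30 h the Nkx2-1 peak lay 139 bp above another peak of 16.1 kb, and the order with neighbouring peaks merged was not computed. Foxa2 was also under the least H3K4me3, 1109 bp, close to the 1227 bp at Nkx2-9. The H3K4me3 peak at Nkx2-9 had the lower score, 121.54.

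At Nkx2-1, the homeodomain gene of the ventral forebrain, the proliferating H3K27me3 peak ran on chromosome 12 from 57618415 to 57644003, 25.6 kb wide with a score of 3100. At 30 h it ran from 57616906 to 57650422, 33.5 kb wide with a score of 3100, which was 1.51 kb further on the lower side and 6.42 kb further on the higher side. H3K4me3 was in 5 peaks inside it. The strongest, from 57631184 to 57639100, was 7.92 kb wide with a score of 3100. Below it lay peaks of 2.63 kb from 57620164 to 57622793 (score 417.04), 1.87 kb from 57624776 to 57626641 (score 236.98) and 2.77 kb from 57628160 to 57630931 (score 501.93). Above it lay a peak of 0.630 kb from 57641684 to 57642313 with a score of 53.39, close to the lowest score of the list, 50.01. The gaps between neighbours were 1.98, 1.52, 0.252 and 2.58 kb.

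Together the 5 H3K4me3 peaks covered 15.8 kb, or 61.8% of the proliferating H3K27me3 peak at Nkx2-1. Of the 9470 proliferating H3K27me3 peaks, 4 met at least 5 H3K4me3 peaks, Nkx2-1 among them (0.0422%). The Nkx2-1 peak ranked 54 by width in that list, and the share was not matched for width. The 7.92 kb peak ranked 59 by width among 18727 H3K4me3 peaks. Over proliferating H3K27me3 the median H3K4me3 peak was 1473 bp wide, and 4 of 2051 (0.195%) were at least as wide as the one at Nkx2-1. Nkx2-1 therefore had long stretches of both marks. Cells that carry both marks, a mixture of cells with either, and a difference between the cultures cannot be told apart from these lists. The H3K4me3 culture was labelled ventral and the H3K27me3 cultures were not.

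At Nkx2-9, proliferating cultures had an H3K27me3 peak of 9.33 kb on chromosome 12 from 57708522 to 57717848, with a score of 1984.88. A second peak of 1.28 kb from 57721661 to 57722944 had a score of 56.93, and 15.5% of the list scored lower. At 30 h a single peak from 57697001 to 57728037, 31.0 kb wide with a score of 3100, held both and covered the whole window. It reached 11.5 kb below and 10.2 kb above the larger proliferating peak, and 34.2% of it was in the proliferating list. A single H3K4me3 peak of 1.23 kb from 57712460 to 57713686, with a score of 121.54, lay near the middle of the larger proliferating peak, 3.94 kb from its lower and 4.16 kb from its higher edge. It took 13.2% of that peak, and no H3K4me3 lay over the smaller one.

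Nkx2-1 and Nkx2-9 are neighbours in the RefSeq gene table, with no protein-coding gene between them, yet their H3K27me3 did not join. The stretch between the windows held 1 proliferating H3K27me3 peak of 1.74 kb and no H3K4me3 peak. At 30 h it held a peak of 3.05 kb and the lower end of the Nkx2-9 peak, and 15.1% of it was covered. The distance from the H3K27me3 peak of Nkx2-1 to the first peak of the Nkx2-9 window was 64.5 kb in proliferating cultures and 46.6 kb at 30 h.

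**Figure D2:**
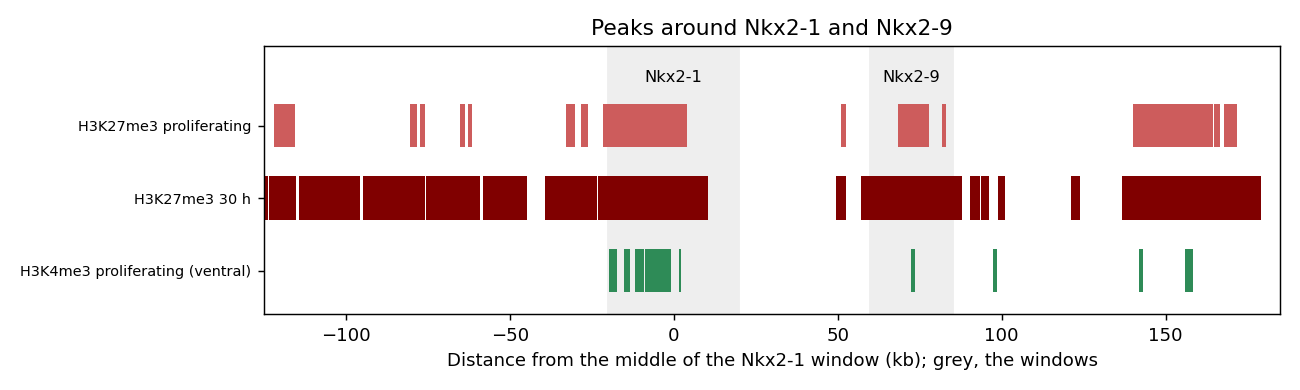
Peaks of the 3 lists (rows) around Nkx2-1 and Nkx2-9 on chromosome 12, against the distance from the middle of the Nkx2-1 window (x axis, kb), with both windows in grey, drawn to scale, 1 library per row. The H3K27me3 peaks of the genes stay 64.5 kb apart in proliferating cultures and 46.6 kb apart at 30 h.

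Set against the whole lists, H3K27me3 at the 4 genes was among the widest and strongest. The main proliferating peak of each gene scored above 96.6 to 97.6% of its list and was wider than 96.4 to 99.6% of it. All 4 peaks at 30 h shared the score of 3100, which was reached by 3.42% of that list, so they cannot be ranked by score, and they were wider than 96.0 to 99.7% of it. By width the order was Foxa2, Nkx2-1, Shh and Nkx2-9 in proliferating cultures, and Foxa2, Nkx2-1, Nkx2-9 and Shh at 30 h. The lower pair thus changed places, and without replicates neither order could be tested. Both orders are those of peaks as called, and the 30 h peak at Nkx2-1 lay 139 bp above another of 16.1 kb.

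**Figure D3:**
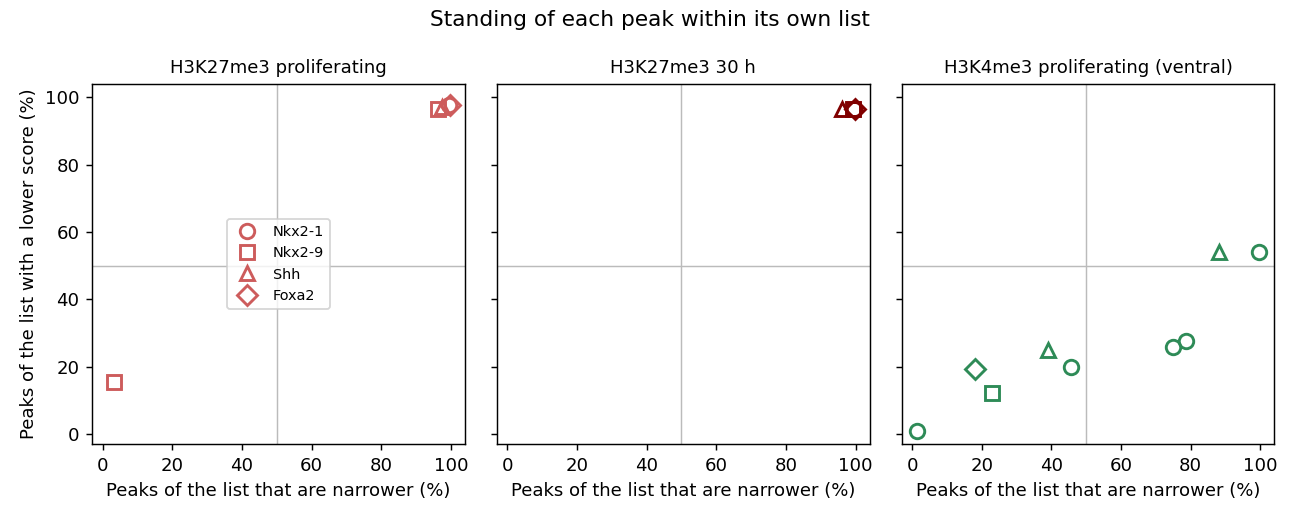
Standing of each of the 18 peaks within its own list: the share of the list that is narrower (x axis, percent) against the share with a lower score (y axis, percent), by gene (symbol) and list (panel), 1 library each. H3K27me3 peaks sit in the upper right corner except the 1.28 kb peak at Nkx2-9, and 7 of the 9 H3K4me3 peaks lie below the middle of their list by score.

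Covered length gave the same picture. H3K27me3 covered 60.0% of the Nkx2-1 window before differentiation and 76.1% at 30 h. The values were 42.4% and 100% at Nkx2-9, and 72.0% and 88.3% at Foxa2. As background the placed chromosomes were cut into adjoining tiles as long as each window. In the proliferating list, 0.179% of the tiles were covered at least as much as Nkx2-1, 0.470% as much as Nkx2-9, 0.890% as much as Shh and 0.106% as much as Foxa2. At 30 h these shares were 0.427%, 0.105%, 2.87% and 0.232%. For H3K4me3 they were 0.0364% at Nkx2-1, 3.37% at Shh, 12.1% at Nkx2-9 and 16.6% at Foxa2. The windows were placed around genes and the tiles were not, so these shares describe the windows and test nothing.

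**Figure D4:**
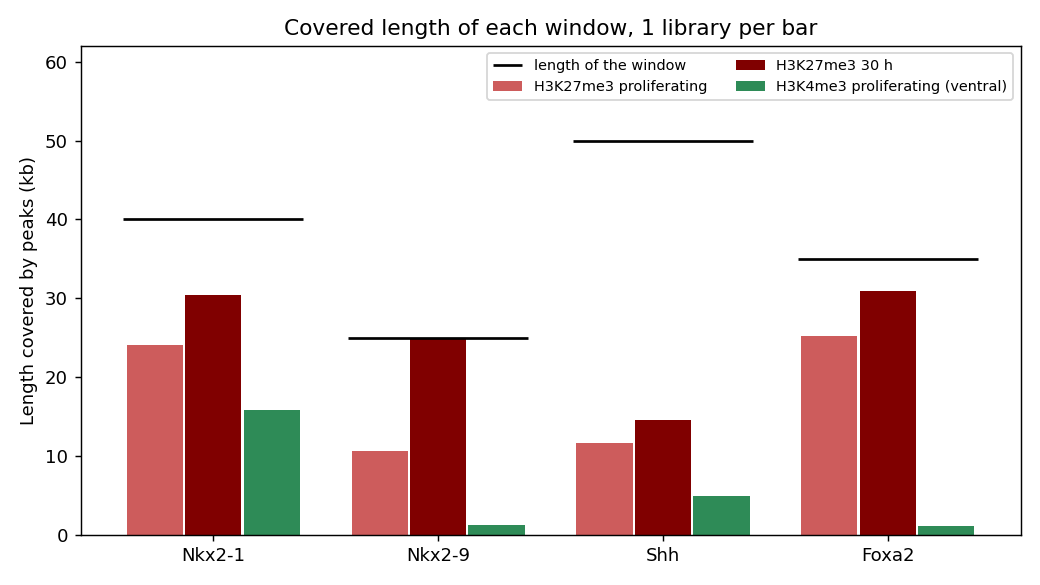
Length covered by peaks (y axis, kb) in the window of each gene (x axis), by list (colour), with a black line at the length of the window. Bars are 1 library each, and in all 4 windows the 30 h H3K27me3 bar is the highest, with the largest step, 14.39 kb, at Nkx2-9. Among 40 kb tiles with H3K27me3 in both lists, 93.2% are covered more at 30 h.

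All 5 proliferating H3K27me3 peaks of the windows overlapped a 30 h peak, against 61.3% of the whole list. All 5 lay wholly inside a 30 h peak, against 46.5% of the list and 74.6% of the strongest of 5 score groups, which holds the main peak of each gene. Of the 30 h peaks, 4 of 4 overlapped a proliferating peak, against 30.7% of that list, and those at Foxa2 and Nkx2-9 met more than 1, against 5.83%. None of these shares was matched for width. The 30 h peaks at Foxa2 and Nkx2-9 were 45.8 and 31.0 kb wide, and the median of the 30 h list was 3229 bp. The gain in covered length at 30 h was the common direction. Of 40 kb tiles with H3K27me3 in both lists, 93.2% were covered more at 30 h, and of those with it in either list 72.7% were, so 4 of 4 windows is near the background and is not a result about these genes. With the 30 h list cut to its strongest peaks, at the covered length of the proliferating list, it was again 4 of 4. The shares were 86.5% of tiles with the mark in both lists and 27.9% of tiles with it in either. All 4 windows held the mark in both lists, so 86.5% is the like share. The 27.9% also counts tiles that the cut left without a 30 h peak.

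The size of the step differed among the genes. The 30 h peak was 1.25 times as wide as the main proliferating peak inside it at Shh, 1.31 times at Nkx2-1, 1.63 times at Foxa2 and 3.33 times at Nkx2-9. At Foxa2 and Nkx2-9 the 30 h peak held 2 proliferating peaks, and the ratio leaves out the smaller. With both, 33.9 of the 45.8 kb at Foxa2 and 10.6 of the 31.0 kb at Nkx2-9 were in the proliferating list. At Nkx2-1 another 30 h peak, 16.1 kb wide with a score of 3100, ended 139 bp below the one measured. The ratio leaves it out, and ratios with neighbouring peaks merged were not computed. For all 4405 proliferating peaks that lay inside a 30 h peak the median was 2.73 times, and for the 1412 of them in the strongest score group it was 1.84 times. With peaks as called, Shh, Nkx2-1 and Foxa2 were below both medians. Neither set was matched for the width of the proliferating peak, which is the divisor of the ratio. The proliferating peaks of these 3 genes were wider than 97.4 to 99.6% of their list, so the medians are not those of peaks as wide. Nkx2-9 was above both, and 20.5% of the strongest group widened as much or more. The 30 h list is the longer of the H3K27me3 lists. The lowest score was 50.01 in the proliferating list and 50.03 in the 30 h list, and the part of depth in the step was not tested.

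**Figure D5:**
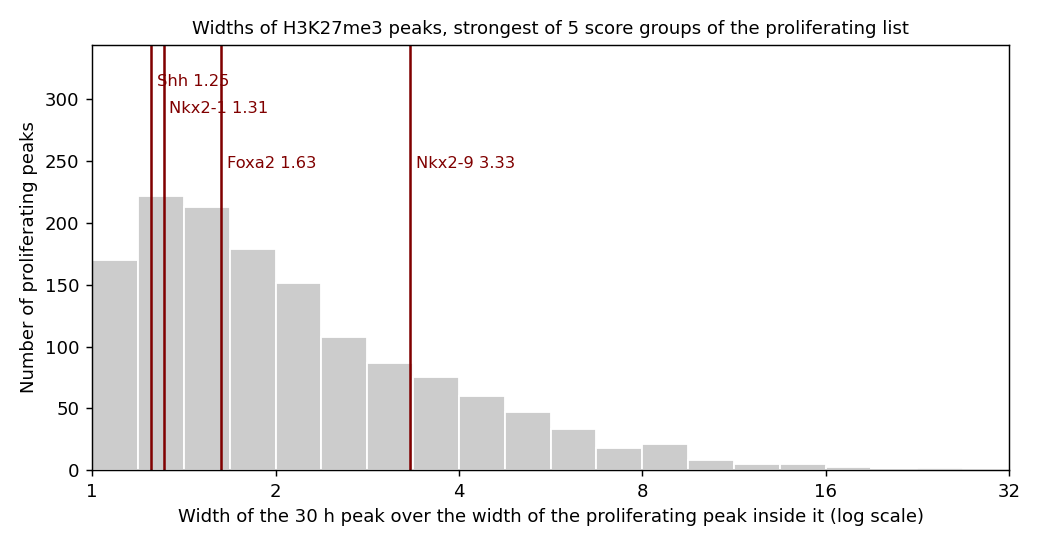
Number of proliferating H3K27me3 peaks (y axis) by the width of the 30 h peak that holds them over their own width (x axis, log scale), for the 1412 contained peaks of the strongest score group, with lines at the main peak of each gene. Shh, Nkx2-1 and Foxa2 lie at 1.25, 1.31 and 1.63, below the median of 1.84, and Nkx2-9 lies at 3.33. Peaks are as called, and the 30 h peak that ends 139 bp below that of Nkx2-1 is left out.

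H3K4me3 met H3K27me3 at every peak of these windows. In proliferating cultures 9 of 9 H3K4me3 peaks overlapped H3K27me3, against 11.0% of all H3K4me3 peaks, and 9 of 9 lay wholly inside an H3K27me3 peak, against 6.75%. The same H3K4me3 peaks of proliferating cultures were laid on the 30 h H3K27me3 list. The counts were 9 of 9 against 14.3% for overlap and 9 of 9 against 8.52% for peaks wholly inside. Peaks of the same window lie under the same H3K27me3 peak, so the 9 stand for 4 places. Seen from H3K27me3, 4 of the 5 proliferating peaks overlapped H3K4me3, against 19.5% of the list. Of the 30 h peaks, 4 of 4 overlapped H3K4me3 of proliferating cultures, against 16.0%. These shares were not matched for width. The median peak was 2074 bp wide in the proliferating list and 3229 bp wide in the 30 h list, and most peaks of the windows were far wider.

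The H3K4me3 peaks were mostly weak. Of the 9, 7 scored below the median of their list, 2622.34, and 2, those at Shh and Nkx2-1, reached 3100. A score of 3100 or more was held by 46.1% of all H3K4me3 peaks and by 11.0% of those over proliferating H3K27me3. The share of the proliferating H3K27me3 peak under H3K4me3 fell in the order Nkx2-1 (61.8%), Shh (42.5%), Nkx2-9 (13.2%) and Foxa2 (3.96%). Among the 1843 proliferating H3K27me3 peaks that met H3K4me3 the median share was 39.3%, with quartiles at 23.1 and 59.2%. These 1843 peaks were not matched for width, which is the divisor of the share. The median peak of the whole proliferating list was 2074 bp wide, and the main peaks of the 4 genes were 9.33 to 28.0 kb wide. Nkx2-1 lay above the upper quartile, Shh between the quartiles, and Nkx2-9 and Foxa2 below the lower. Whether the low shares differ from those of peaks as wide was not tested. A wide H3K27me3 peak thus went with much H3K4me3 at Nkx2-1 and with little at Foxa2, whose proliferating H3K27me3 peaks were 25.6 and 28.0 kb wide. H3K4me3 at 30 h was not measured.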

How the data were processed

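Peak lists deposited by the authors were used for H3K27me3 in proliferating SVZ NSC cultures, H3K27me3 at 30 h of differentiation and H3K4me3 in proliferating cultures labelled ventral, with 1 library each. The submitters' processing notes name Bowtie2 and mm9, and the study's methods name MACS, with no model and no lambda for H3K27me3. The MACS version, threshold and use of input were not stated. The score in each list is the authors' deposited value from MACS. Starts were read as counting from 0, as in BED, and are printed counting from 1.

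Windows were those of the rule for the members, and every peak over them was named. The members were chosen with earlier results of these data known. Overlap was at least 1 bp, and covered length was the union of peaks inside a window. Python 3.11.15, numpy 2.4.6, pandas 2.3.3 and matplotlib 3.10.9 were used. The number of peaks in the windows was the same with bedtools 2.31.1. On simulated data the overlap code was tested and equalled a base-by-base count for 4000 of 4000 peaks. Ranks by score were also taken by width, and lists were shortened, merged or met with a stricter overlap. The comparison within the strongest of 5 score groups and the tiles as long as each window were added after seeing the data. Other Hedgehog pathway and ventral patterning genes were planned only with mm9 gene positions and were not analysed here. No test was made, since each condition has 1 library.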

Additional observations from a re-analysis of the deposited data

How the results depend on the processing

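With 1 library per mark and condition, no library could be left out. No paired analysis was possible because each group has 1 sample. In all 5 settings tried on covered length, 4 of 4 windows were covered more at 30 h. With the 30 h list cut to as many peaks, or to as much covered length, as the proliferating list, every value over the 4 windows was as reported. Under the latter cut 86.5% of 40 kb tiles with the mark in both lists were covered more at 30 h, and 27.9% of those with it in either. The 4 windows held it in both, so 86.5% is the like share. With the stronger 50% of each list, H3K27me3 covered 70.1 kb in proliferating cultures, and 2 H3K4me3 peaks were left, of which 2 overlapped H3K27me3 in each list. With peaks less than 3 kb apart merged, 5 of 5 H3K4me3 stretches overlapped H3K27me3 in each list. With windows widened by 10 kb on both sides there were 10 proliferating H3K27me3 peaks over 87.1 kb, of which 9 overlapped a 30 h peak, and 8 peaks at 30 h over 134 kb. Covered length was then 13.1 kb in proliferating cultures and 14.5 kb at 30 h at Shh, and 33.9 and 40.9 kb at Foxa2. It was 27.8 and 40.3 kb at Nkx2-1, and 12.3 and 38.1 kb at Nkx2-9. These shifts follow from fewer peaks or longer windows. With at least 50% of the peak covered, the counts of overlap were as reported. Of the 18 peaks, 8 stood above 95% of their list by score and 9 by width. The unknown depth and threshold of each library limit every comparison between lists.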

Other observations

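The stretch below Nkx2-1 on chromosome 12 was looked at after its values were seen. In proliferating cultures 9 H3K27me3 peaks reached into the 100 kb below the window and covered 17.9 kb of it, and at 30 h 8 peaks did and covered 91.7 kb, a difference of 73.9 kb. The counts and lengths of both lists include the lower end of the Nkx2-1 peak itself. Of 26402 tiles of 100 kb, 0.0379% were covered as much at 30 h and 0.00758% differed by as much. The peak next to Nkx2-1 at 30 h ran from 57600653 to 57616766, 16.1 kb wide with a score of 3100, and ended 139 bp below the Nkx2-1 peak. In the proliferating list the same place held peaks of 2.87 and 2.17 kb with scores of 96.03 and 115.37. No H3K4me3 peak lay in these 100 kb, and the next one below the Nkx2-1 window was 173 kb away. In the RefSeq gene table the protein-coding gene before Nkx2-1 is Mbip. The 100 kb above the Nkx2-9 window held 30.0 kb of H3K27me3 in proliferating cultures, 55.6 kb at 30 h, which includes the higher end of the Nkx2-9 peak, and 3 H3K4me3 peaks. The depth of the libraries is unknown, and its part in this difference was not tested.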
